A study of Homo sapiens with 20 samples.

Results

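SJCRH30 and Rh41 are cell lines of alveolar rhabdomyosarcoma, a childhood soft tissue tumour with features of skeletal muscle that carries the PAX3-FOXO1 fusion gene. Cells of both lines that resist prexasertib, a drug that blocks the checkpoint kinase CHK1, were compared with parental cells, and the direction of each gene's change was set side by side in the 2 lines. The comparison used 14 of the 20 arrays of the study, namely 3 resistant and 3 parental arrays of SJCRH30 and 5 resistant and 3 parental arrays of Rh41. The other 6 arrays, 3 resistant and 3 parental, were of the lung squamous carcinoma line NCI-H520. Each array gave 1 value per transcript cluster (the set of probes that measures the transcripts of a gene), and the 17709 clusters with a single gene symbol were tested and are called genes here.

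The resistant and parental groups differed in how they were made. According to the study's methods, the resistant SJCRH30 line was grown out of a mouse xenograft tumour that had come back after prexasertib, and the parental SJCRH30 line out of a xenograft of a vehicle-treated mouse. The labels also name a xenograft source for SJCRH30, but their treatment note, which covers every resistant line, speaks of stepwise rises in drug concentration, and which of these holds for the SJCRH30 arrays is not settled. With the xenograft origin, each group is cultures of 1 line from 1 tumour, and resistance and the tumour of origin cannot be told apart in SJCRH30. The resistant Rh41 arrays were of separate cultures kept in rising concentrations of prexasertib, and the parental Rh41 arrays were of cultures kept in the solvent DMSO. The study states that the lines grown from tumours were passaged with prexasertib in the medium, but the sources used here do not say whether it was there when RNA was taken. By their labels the arrays of each group are biological replicates, and the p-values below measure the spread between these cultures.

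CHK1 is activated by the kinase ATR when DNA replication forks stall. It then holds back the cyclin-dependent kinases that fire replication origins and drive entry into mitosis, partly by marking the phosphatase CDC25A for destruction. Alveolar rhabdomyosarcoma cells express the muscle regulators MYOD1 and MYOG without completing muscle differentiation, and the PAX3-FOXO1 fusion protein activates genes such as FGFR4 and MYCN. DNA that leaks into the cytosol of damaged cells can set off the cGAS-STING pathway, which leads to interferon and the genes it induces.

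The values of the lines were on different scales. The standard deviation over all values of an array was 2.99 in SJCRH30 and 1.99 in Rh41 (a ratio of 1.5). A log2 change of a given size therefore does not mean the same in both lines, and directions, calls and standardized changes were compared in place of sizes. A standardized change is the log2 difference, resistant minus parental, divided by the standard deviation of these differences over all genes of that line, which was 0.603 in SJCRH30 and 0.41 in Rh41. A gene was called in a line when limma's moderated test gave a Benjamini-Hochberg adjusted p below 0.05 over all 17709 genes. The rhabdomyosarcoma markers MYOG, DES, CHRNA1, CDH15 and FGFR4 stood at the 89.3rd percentile of genes or higher in all 4 groups. MYOD1 lay between the 71.9th and 81.8th, MYCN between the 71.6th and 88.9th, and TFAP2B, another marker of these tumours, between the 51.9th and 84.9th. Arrays of 1 group correlated at 0.983 to 0.994, and resistant with parental arrays of 1 line at 0.962 to 0.975.

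Over all genes, the changes of the 2 lines showed almost no correlation. The direction was the same in 8748 of 17709 genes (49.4%), with a Pearson correlation of -0.02 and a Spearman correlation of -0.01 across genes, given as a description because genes are not independent replicates. In SJCRH30 1699 genes rose (9.59%) and 1666 fell (9.41%), 19% of all genes, and in Rh41 2001 rose (11.3%) and 1628 fell (9.19%), 20.5% of all genes. Called in both lines were 1172 genes (6.62%). Of these, 546 (46.6%) changed in the same direction, which is 3.08% of all genes, and 626 in opposite directions, which is 3.53%. The genes that rose in both numbered 344 (1.94% of all genes), those that fell in both 202 (1.14%), those that rose in SJCRH30 and fell in Rh41 264 (1.49%), and those that fell in SJCRH30 and rose in Rh41 362 (2.04%).

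A call in SJCRH30 went with a higher share of calls in Rh41 in either direction. Of the genes that rose in SJCRH30, 20.2% rose and 15.5% fell in Rh41, and of those that fell in SJCRH30, 21.7% rose and 12.1% fell in Rh41, against 11.3% and 9.19% of all genes. Rises made up 56.6% of the Rh41 calls among genes that rose in SJCRH30 and 64.2% among genes that fell, against 55.1% over all genes. Among the 100 genes with the largest absolute moderated t in each line, 7 were shared and 3 of these changed the same way, and among the top 1000, 188 were shared and 81 changed the same way. In the other pairs of lines, the direction was the same in 50.2% of genes for SJCRH30 with NCI-H520 and in 49.9% for Rh41 with NCI-H520, and in 51.5% and 48.4% of the genes called in both lines of the pair.

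**Figure D1:**
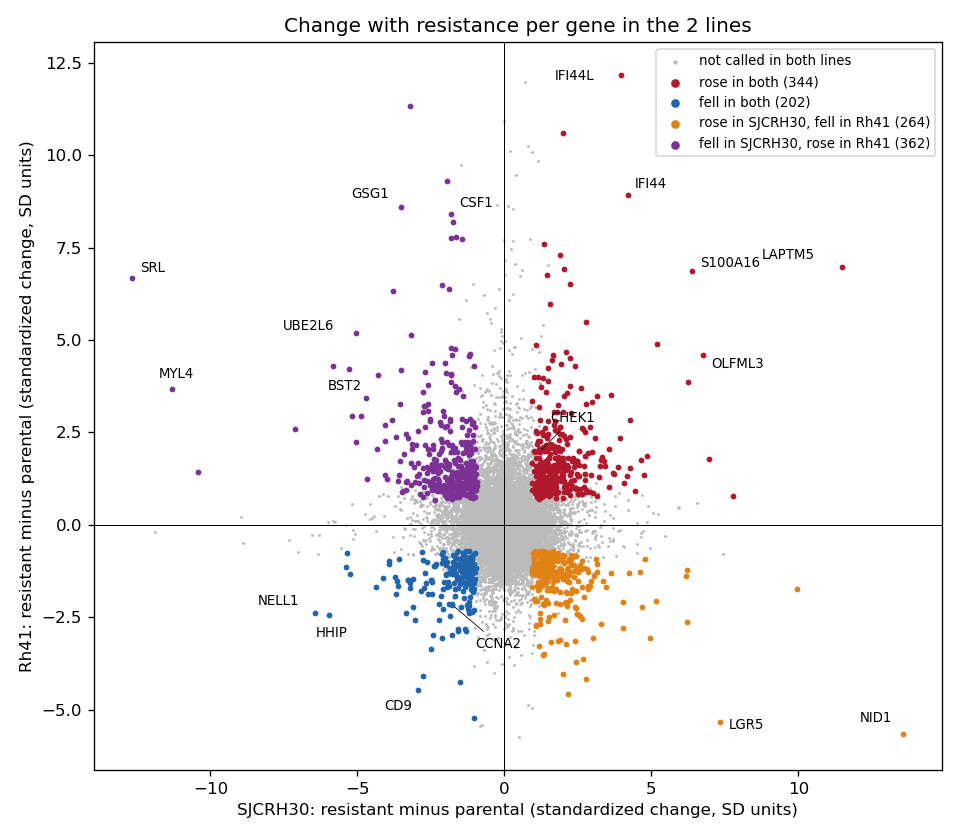
Standardized change with resistance (resistant minus parental, in SD units of each line) of 17709 genes, SJCRH30 on the horizontal and Rh41 on the vertical axis, with the 4 classes of genes called in both lines in colour and all other genes in grey. The upper right and lower left fields hold 344 and 202 called genes that changed the same way, and the lower right and upper left fields 264 and 362 that changed in opposite ways.

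The difference of the changes was tested in 1 limma fit of the 14 arrays, after each line's values were divided by the standard deviation over all its values. It passed in 3948 genes (22.3%), 1790 (10.1%) with the higher change in SJCRH30 and 2158 (12.2%) with the higher change in Rh41. It was called in all 264 and all 362 genes of the opposite classes, which follows from their choice by opposite calls on the same arrays and is no further support. It was also called in 71 of the 344 that rose in both and 37 of the 202 that fell in both. In these the direction was shared, but the size in units of each line's standard deviation of all values was not. Resistant and parental arrays did not overlap in either line for 319, 196, 256 and 332 genes of the 4 classes in the order above, where 12.5% of all genes had no overlap in both lines. The classes were called on these same arrays, so this too largely follows from the choice and is no further support.

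The genes with the largest changes that rose in both lines were LAPTM5, S100A16, UGT3A1, OLFML3, IFI44, IFI44L, SGIP1 and PYGM, ranked by the smaller of their absolute standardized changes. In each class the genes ranked this way were taken from those whose resistant and parental arrays did not overlap in either line, so the lack of overlap in their values is part of the choice. LAPTM5, a lysosomal membrane protein known from blood cells, had log2 values of 14.35, 14.07 and 13.76 on the resistant SJCRH30 arrays, against 7.40, 7.26 and 6.76 on the parental ones. On the Rh41 arrays its values were 8.65, 8.52, 8.73, 8.61 and 8.19 in resistant cells and 5.73, 5.28 and 6.02 in parental cells. The groups lay far apart in both lines, with changes of 6.92 ± 0.23 in SJCRH30 (SE, adjusted p = 1.41e-09) and 2.86 ± 0.17 in Rh41 (adjusted p = 1.34e-06). LAPTM5 was the only gene of the leukocyte list called in both lines, and PTPRC, which encodes the pan-leukocyte antigen CD45, averaged 4.52 in resistant and 4.36 in parental SJCRH30 cells and 4.01 in resistant and 4.06 in parental Rh41 cells. S100A16, a calcium-binding protein, had 10.85, 11.40 and 11.28 in resistant SJCRH30 cells, against 7.21, 7.63 and 7.15 in parental ones. In Rh41 it had 7.59, 7.19, 7.45, 7.38 and 7.55 in resistant cells, against 4.53, 4.17 and 5.13 in parental cells. The groups were again apart in both lines, and the test of the difference between the changes did not pass for S100A16 (adjusted p = 0.53).

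The interferon-stimulated genes IFI44L and IFI44, neighbours on chromosome 1, rose in both lines. IFI44L was near the low end of the scale in parental cells of both lines: its values were 5.05, 5.76 and 5.08 in resistant SJCRH30 cells, against 2.90, 2.98 and 2.84 in parental ones. The resistant Rh41 cultures had 7.93, 8.20, 8.33, 8.55 and 9.03, against 2.93, 3.85 and 3.48 in parental cultures. Every resistant array was above every parental one, and the standardized change was 3.97 in SJCRH30 and 12.2 in Rh41. The test of the difference, which divides by the spread of all values and so runs on another scale than the standardized changes, gave -1.70 (SJCRH30 minus Rh41, adjusted p = 9.4e-07). IFI44 rose by 2.54 ± 0.19 in SJCRH30 and 3.66 ± 0.20 in Rh41 (SE). UGT3A1, a glycosyltransferase of the UGT family, rose by 3.14 ± 0.34 and 2.01 ± 0.16, OLFML3, a secreted matrix protein, by 4.07 ± 0.21 and 1.89 ± 0.21, and SGIP1, a protein of clathrin-mediated endocytosis, by 3.76 ± 0.23 and 1.59 ± 0.18. PYGM, the glycogen phosphorylase of muscle, rose by 2.18 ± 0.19 in SJCRH30 and 1.44 ± 0.15 in Rh41.

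The promoters of 4 interferon-stimulated genes are shown because these genes were called in both lines, IFI44L and IFI44 with a rise in both and BST2 and UBE2L6 with a fall in SJCRH30 and a rise in Rh41. Each sequence is a RefSeq promoter of the GRCh38.p14 build, 300 bases around the annotated start of transcription, given 5′ to 3′ on the gene's strand. Capitals mark matches to the core of the interferon response element, GAAANNGAAA, on either strand. IFI44 and UBE2L6 each had 2 promoters listed, of which the first is shown.
IFI44L, chr1:78620198-78620497, plus strand: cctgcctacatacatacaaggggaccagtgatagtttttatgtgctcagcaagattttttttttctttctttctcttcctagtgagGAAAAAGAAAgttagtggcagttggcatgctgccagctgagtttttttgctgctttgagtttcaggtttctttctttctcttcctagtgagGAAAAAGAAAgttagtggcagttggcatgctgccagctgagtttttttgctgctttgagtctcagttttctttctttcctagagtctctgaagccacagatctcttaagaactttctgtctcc
IFI44, chr1:78649539-78649838, plus strand: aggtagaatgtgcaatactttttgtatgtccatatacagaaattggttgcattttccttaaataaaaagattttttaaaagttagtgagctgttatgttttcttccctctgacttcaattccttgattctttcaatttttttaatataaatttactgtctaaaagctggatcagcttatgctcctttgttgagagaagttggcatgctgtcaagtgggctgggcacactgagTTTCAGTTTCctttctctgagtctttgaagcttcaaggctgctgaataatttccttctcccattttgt
BST2, chr19:17405581-17405880, minus strand: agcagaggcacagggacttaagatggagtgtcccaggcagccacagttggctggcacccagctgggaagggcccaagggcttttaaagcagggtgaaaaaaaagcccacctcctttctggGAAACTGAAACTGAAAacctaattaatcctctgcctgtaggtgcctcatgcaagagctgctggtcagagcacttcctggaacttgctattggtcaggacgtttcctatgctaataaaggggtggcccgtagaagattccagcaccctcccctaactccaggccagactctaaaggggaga
UBE2L6, chr11:57567886-57568185, minus strand: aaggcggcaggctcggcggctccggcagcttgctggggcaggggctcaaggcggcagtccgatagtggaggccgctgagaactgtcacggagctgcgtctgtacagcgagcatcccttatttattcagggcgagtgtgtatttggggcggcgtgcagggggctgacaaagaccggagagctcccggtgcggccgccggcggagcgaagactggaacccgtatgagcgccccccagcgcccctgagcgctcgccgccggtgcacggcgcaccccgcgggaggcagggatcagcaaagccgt
In the sequences shown, IFI44L and BST2 each held 2 matches, which overlap in BST2, IFI44 held 1 and UBE2L6 none. The promoter of IFI44 that is not shown also held the element, and that of UBE2L6 did not. The element stood in 3.57% of the 35116 promoters of the table, and 4.13% of the tested genes with a promoter had it in at least 1 promoter. Among the interferon-stimulated genes with a promoter in the table it was present for 5 of the 7 that rose in both lines and for 2 of the 3 that fell in SJCRH30 and rose in Rh41. A match describes the letters in this window and is no measure of binding.

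Among the genes that fell in both lines, CD9, NRG1, PCDH7, ID3, HHIP, CYYR1, NELL1 and KIAA1549L had the largest changes. CD9, a tetraspanin of the cell surface, had 11.82, 11.84 and 11.70 in resistant SJCRH30 cells, against 13.86, 14.06 and 12.76 in parental ones. On the Rh41 arrays it had 6.61, 7.10, 7.04, 6.91 and 6.91 in resistant cells, against 8.55, 8.78 and 8.90 in parental cells, so the groups did not overlap in either line. HHIP, which binds and restrains Hedgehog ligands, had 11.41, 11.15 and 11.20 in resistant SJCRH30 cells, against 14.93, 14.72 and 14.91 in parental ones. In resistant Rh41 cells HHIP lay between 6.43 and 6.63, against 7.35 to 7.81 in parental cells, and its fall was the greater in SJCRH30 on the standardized scale (-5.97 against -2.45 in Rh41) and in the test of the difference (-0.70 in units of each line's standard deviation of all values, adjusted p = 8.0e-06). ID3, an inhibitor of basic helix-loop-helix factors such as MYOD1, fell by 1.51 ± 0.20 in SJCRH30 and by 1.37 ± 0.12 in Rh41. NRG1, a ligand of ERBB receptors, fell by 1.68 ± 0.22 and 1.68 ± 0.16, PCDH7, a protocadherin, by 1.83 ± 0.20 and 1.06 ± 0.13, and NELL1, a secreted protein that is among the listed PAX3-FOXO1 targets, by 3.90 ± 0.27 and 0.98 ± 0.11. The cyclin gene CCNA2 had 12.60, 12.47 and 12.71 in resistant SJCRH30 cells, against 13.79, 13.75 and 13.46 in parental ones. The Rh41 values were 8.86, 8.53, 8.71, 8.79 and 8.63 in resistant cells, against 9.58, 9.58 and 9.60 in parental cells. CCNA2, whose product partners CDK2 and CDK1 in S phase and G2, was thus lower on every resistant array of both lines, with changes of -1.08 ± 0.19 in SJCRH30 (adjusted p = 0.0016) and -0.88 ± 0.10 in Rh41 (adjusted p = 0.000139).

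Genes that rose in SJCRH30 and fell in Rh41 were led by NID1, LGR5, DPYD, LRFN5, PRKG1, ELAPOR2, SEMA3D and SLC7A2. NID1, the basement membrane protein nidogen 1, had 10.87, 11.31 and 10.98 in resistant SJCRH30 cells, against 2.90, 2.72 and 2.98 in parental ones. In Rh41 it had 6.43, 7.15, 6.42, 6.78 and 6.80 in resistant cells, against 9.23, 8.89 and 8.99 in parental cells. Parental SJCRH30 cells thus stood near the low end of the scale while parental Rh41 cells expressed the gene, and resistance went with the reverse in each line (8.19 ± 0.20 and -2.32 ± 0.17, SE). The difference of the changes was 3.90 in units of each line's standard deviation of all values. LGR5, a receptor for R-spondins that strengthens Wnt signalling, had 9.20, 9.20 and 8.75 in resistant SJCRH30 cells, against 5.36, 4.30 and 4.23 in parental ones. Resistant Rh41 cells had LGR5 values of 5.10, 5.66, 5.68, 5.37 and 5.43, against 7.97, 7.28 and 7.66 in parental cells. LGR4, a paralogue with the same kind of ligand, went the other way in both lines, with changes of -1.78 ± 0.20 in SJCRH30 and 1.04 ± 0.15 in Rh41. DPYD, which degrades pyrimidines, changed by 2.99 ± 0.23 and -1.25 ± 0.24, PRKG1, a cyclic GMP-dependent kinase, by 2.44 ± 0.26 and -1.14 ± 0.12, and SLC7A2, a cationic amino acid transporter, by 1.61 ± 0.22 and -1.49 ± 0.14.

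SRL, UBE2L6, F2RL2, LRRN1, BST2, PLEKHS1, MYL4 and GSG1 led the genes that fell in SJCRH30 and rose in Rh41. SRL, which encodes the calcium-binding protein sarcalumenin of the muscle sarcoplasmic reticulum, had 3.67, 3.17 and 2.93 in resistant SJCRH30 cells, against 11.03, 11.06 and 10.59 in parental ones. On the Rh41 arrays it had 7.43, 7.51, 7.51, 7.34 and 7.69 in resistant cells, against 4.65, 4.70 and 4.92 in parental cells. The values were low in resistant SJCRH30 and in parental Rh41 cells and high in the other 2 groups, a difference of -3.92 in units of each line's standard deviation of all values. UBE2L6, the enzyme that conjugates the interferon-induced modifier ISG15, had 8.39, 8.19 and 7.46 in resistant SJCRH30 cells, against 11.22, 11.08 and 10.86 in parental ones. The Rh41 values were 9.44, 9.20, 9.23, 9.35 and 9.57 in resistant cells, against 7.06, 7.13 and 7.49 in parental cells. BST2 (tetherin), which holds budding viruses at the cell surface, averaged below log2 5 in 3 of the 4 groups. It had 3.13, 2.83 and 2.65 in resistant SJCRH30 cells, against 5.52, 5.97 and 4.93 in parental ones. Resistant Rh41 cells had BST2 values of 4.18, 4.30, 4.26, 4.07 and 4.53, against 2.63, 2.49 and 2.71 in parental cells, so no group overlapped its partner. MYL4, a myosin light chain of embryonic muscle, changed by -6.82 ± 0.27 in SJCRH30 and 1.51 ± 0.13 in Rh41, F2RL2, a protease-activated receptor, by -3.51 ± 0.29 and 1.77 ± 0.16, LRRN1, a leucine-rich repeat membrane protein, by -3.19 ± 0.21 and 1.73 ± 0.10, and GSG1, first known from germ cells, by -2.12 ± 0.30 and 3.53 ± 0.11.

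**Figure D2:**
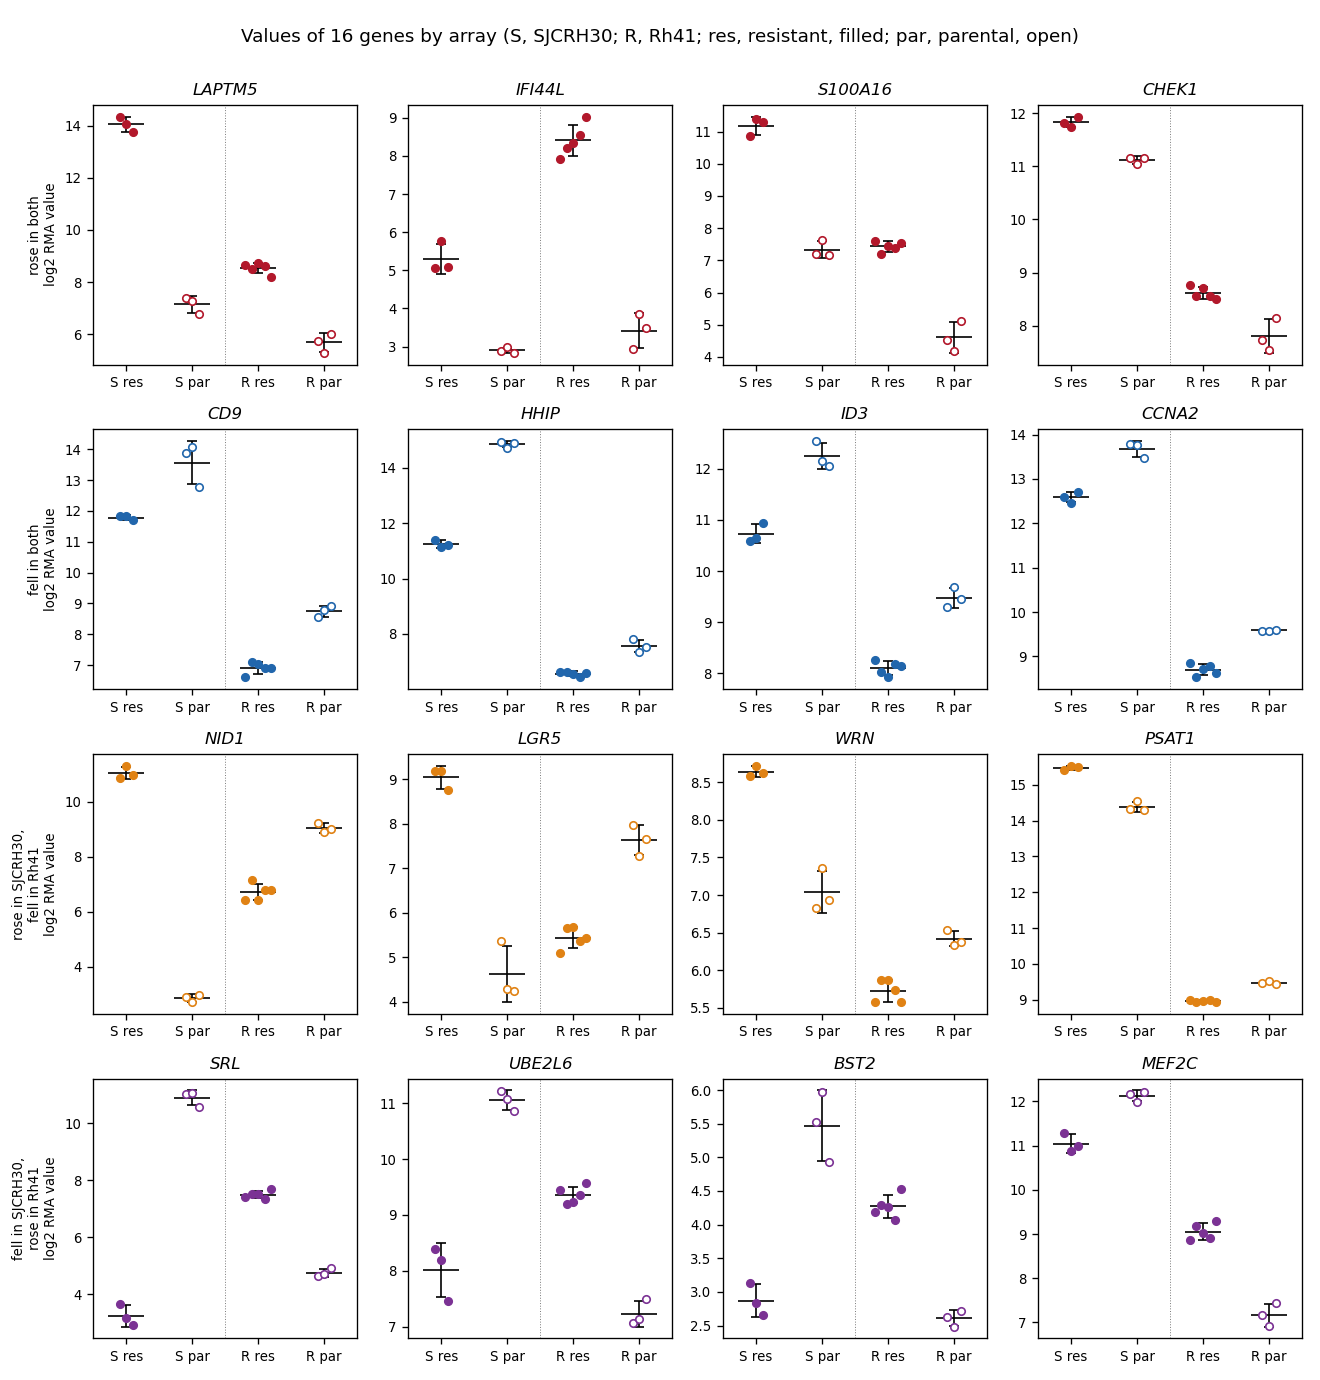
Deposited log2 values of 16 genes, 4 per class, on each array of resistant (filled) and parental (open) SJCRH30 and Rh41 cells; lines are group means and bars the SD (n = 3, 3, 5 and 3 arrays). The genes were taken from those whose groups do not overlap in either line, so the clear gaps are part of that choice; the resistant points lie on the same side of the parental ones in the upper 2 rows and on opposite sides in the lower 2 rows; levels are not comparable across the dotted line because the scales differ.

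Among interferon-stimulated genes, 12 were called in both lines, 8 with the same and 4 with opposite directions. The shares over all genes were 6.62% called in both lines, 3.08% in the same and 3.53% in opposite directions. Of 52 measured members, 8 rose and 6 fell in SJCRH30, near the shares over all genes of 9.59% and 9.41%. In Rh41 36 rose and none fell, where 11.3% and 9.19% of all genes did. All 8 that rose in SJCRH30 also rose in Rh41, namely IFI44, IFI44L, IRF9, SAMD9L, IFITM2, IFITM3, ISG15 and EIF2AK2, and 4 of the 6 that fell in SJCRH30 rose in Rh41, namely UBE2L6, BST2, PARP9 and USP18. IRF9, the DNA-binding part of the factor that interferon activates, rose by 1.13 in SJCRH30 and 3.00 in Rh41, and ISG15 by 0.65 and 1.99. USP18, which removes ISG15 from its targets, changed by -0.86 in SJCRH30 and 3.18 in Rh41. IFITM2 and IFITM3 are close in sequence, so their probes may share signal. The median standardized change of the list was 0.04 in SJCRH30 and 3.00 in Rh41, against 0.01 and -0.08 over all genes. STING1, the adaptor of cytosolic DNA sensing, had values of 9.33, 9.34 and 9.24 in resistant SJCRH30 cells, against 9.22, 8.85 and 9.66 in parental ones (adjusted p = 0.90). In Rh41 it had 8.36, 8.03, 8.38, 8.30 and 8.38 in resistant cells, against 6.88, 6.83 and 6.74 in parental cells, a change of 1.47 ± 0.11 that was higher than that in SJCRH30 (difference adjusted p = 1.7e-05). CD274, which encodes the immune checkpoint ligand PD-L1 and averaged below log2 5 in all 4 groups, had overlapping values in resistant and parental SJCRH30 cells (adjusted p = 0.50) and rose by 1.66 ± 0.22 in Rh41. Of 18 measured genes of MHC class I presentation, 2 rose in SJCRH30 and 9 in Rh41, and PSME1, a subunit of the proteasome activator, was the 1 gene to rise in both.

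In the NF-kB and TNF response list 7 genes were called in both lines, where 6.62% of all genes were. Of 28 measured genes, 5 rose and 4 fell in SJCRH30 (9.59% and 9.41% over all genes), and 11 rose and none fell in Rh41 (11.3% and 9.19% over all genes). The median standardized change was 0.08 in SJCRH30 and 0.30 in Rh41, so in Rh41 it was far below the 3.00 of the interferon-stimulated genes. TNFAIP2, CCL2, TNFRSF12A and PLAU rose in both lines, and CSF1, IL32 and IER3 fell in SJCRH30 and rose in Rh41. CSF1, the growth factor of macrophages, had 5.04, 5.85 and 5.42 in resistant SJCRH30 cells, against 6.16, 6.75 and 6.71 in parental ones. Resistant Rh41 cells had CSF1 values of 7.61, 7.49, 7.73, 7.50 and 7.62, against 4.56, 4.57 and 3.27 in parental cells. The groups did not overlap in either line, and the change was -1.10 ± 0.24 in SJCRH30 and 3.45 ± 0.25 in Rh41. IL32, a cytokine, changed by -0.99 ± 0.24 in SJCRH30 and 3.19 ± 0.11 in Rh41, and its SJCRH30 call was lost without resistant replicate 1 (adjusted p = 0.0521) or parental replicate 1 (adjusted p = 0.0583).

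Skeletal muscle differentiation genes were the other list with 12 members called in both lines, where 6.62% of all genes were. Of 41 measured, 6 rose and 8 fell in SJCRH30 (median standardized change 0.09), and 28 rose and none fell in Rh41 (median 1.51), against 9.59% rises and 9.41% falls in SJCRH30 and 11.3% and 9.19% in Rh41 over all genes. PYGM, MYH8, MYL1, TTN and KLHL41 rose in both, and SRL, MYL4, MYL11, ACTC1, MYBPC2, CAV3 and MYL6B fell in SJCRH30 and rose in Rh41. Members of 1 family thus fell on both sides: the myosin light chain genes MYL1 and MYL11 changed by 0.80 and -1.94 in SJCRH30, and by 3.11 and 4.65 in Rh41. The transcription factor MEF2C, a partner of MYOD1, had 11.28, 10.87 and 10.99 in resistant SJCRH30 cells, against 12.17, 11.99 and 12.22 in parental ones. In resistant Rh41 cells MEF2C had 8.86, 9.18, 9.01, 8.90 and 9.30, against 7.16, 6.91 and 7.43 in parental cells. Its relative MEF2D rose in both lines (1.03 and 0.57). Of the ID genes, which restrain the MYOD1 family, ID3 and ID1 fell in both lines and ID2 fell in SJCRH30 and rose in Rh41 (-1.30 ± 0.29 and 1.11 ± 0.21). The master regulators themselves were called in 1 line each. The change of MYOD1 was -0.28 ± 0.19 in SJCRH30 (adjusted p = 0.36), and it fell in Rh41 (-0.62 ± 0.11), with no call for the difference (adjusted p = 0.0606). MYOG fell in SJCRH30 (-0.87 ± 0.18) and was -0.05 ± 0.09 in Rh41 (adjusted p = 0.72), and the difference passed for MYOG (adjusted p = 0.0067). DES, the muscle intermediate filament desmin, was at -0.18 ± 0.18 in SJCRH30 (adjusted p = 0.55) and rose in Rh41 (0.86 ± 0.09).

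Of 48 measured replication fork genes, 4 were called in both lines, each with opposite directions. Over all genes, 6.62% were called in both lines, 3.08% in the same and 3.53% in opposite directions. Of the 48, 12 rose and 2 fell in SJCRH30 (9.59% and 9.41% over all genes), and 1 rose and 18 fell in Rh41 (11.3% and 9.19%). None was called in the same direction in both lines, and GINS3, WDHD1, RFC4 and MCM7 rose in SJCRH30 and fell in Rh41. Called or not, 15 of the 48 (31.2%) had the same direction in both lines, against 49.4% of all genes. The Rh41 changes of WDHD1, RFC4 and MCM7 were below 1.5-fold, and centring by neighbouring genes ended the SJCRH30 call of GINS3 and both calls of RFC4. The median standardized change was 0.41 in SJCRH30 and -0.54 in Rh41, and the difference of the changes was called in 26 of the 48, with the higher change in SJCRH30 in 23 and in Rh41 in 3. WDHD1, which couples the replicative helicase to DNA polymerase alpha, had 10.57, 10.27 and 10.36 in resistant SJCRH30 cells, against 9.08, 9.10 and 9.16 in parental ones. Resistant Rh41 cells had WDHD1 values of 6.77, 7.08, 7.06, 6.91 and 6.86, against 7.41, 7.66 and 7.43 in parental cells. Of 34 measured DNA repair genes, 6 rose and 3 fell in SJCRH30, and 4 rose and 10 fell in Rh41. Called or not, 19 of the 34 (55.9%) had the same direction in both lines. WRN, XRCC2, BLM and FANCI rose in SJCRH30 and fell in Rh41, and MRE11, a nuclease that resects DNA breaks, rose in both. WRN and BLM are RecQ helicases, and WRN changed by 1.60 ± 0.20 in SJCRH30 (adjusted p = 0.000139) and -0.69 ± 0.11 in Rh41 (adjusted p = 0.00126). BLM was not called in SJCRH30 without parental replicate 1 (adjusted p = 0.0515).

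Among genes of the G1/S transition, 4 fell and none rose in both lines, where 1.14% of all genes fell and 1.94% rose in both. Of 26 measured G1/S and E2F regulators, 6 fell and 5 rose in SJCRH30, where 9.41% and 9.59% of all genes did, and 13 fell and 2 rose in Rh41, where 9.19% and 11.3% of all genes fell and rose. CCNA2, TFDP1, E2F7 and ASF1B fell in both, none rose in both, and CCNE2 and CDK6 rose in SJCRH30 and fell in Rh41. TFDP1, the DNA-binding partner of E2F factors, fell by 1.26 ± 0.19 in SJCRH30 and 0.71 ± 0.09 in Rh41. CCNE1, whose cyclin E drives CDK2 at the start of S phase, was at 0.42 ± 0.18 in SJCRH30 (adjusted p = 0.13) and fell in Rh41 (-0.39 ± 0.09), with a difference that passed (adjusted p = 0.0014). Among 50 G2/M and mitosis genes, 14 fell and 6 rose in SJCRH30, where 9.41% and 9.59% of all genes did, and 12 fell and 2 rose in Rh41, where 9.19% and 11.3% did, with MYBL2, KIF11 and CCNB2 lower in both lines. KIF20A, a kinesin of the cleavage furrow, fell in SJCRH30 (-1.56 ± 0.18) and rose in Rh41 (0.84 ± 0.12). KIF11, a spindle motor, passed narrowly in Rh41 (-0.31 ± 0.09, adjusted p = 0.0378): that call was lost when any 1 of 7 of the 8 Rh41 arrays was left out, and the SJCRH30 call without resistant replicate 1 or parental replicate 2.

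CHEK1, which encodes the drug's target, rose in both lines. It had 11.82, 11.74 and 11.93 in resistant SJCRH30 cells, against 11.16, 11.04 and 11.16 in parental ones. In Rh41 it had 8.76, 8.56, 8.70, 8.55 and 8.50 in resistant cells, against 7.73, 7.54 and 8.15 in parental cells. No resistant array overlapped a parental one, and the changes were 0.71 ± 0.18 in SJCRH30 (adjusted p = 0.0149) and 0.81 ± 0.14 in Rh41 (adjusted p = 0.00197), with no call for the difference (adjusted p = 0.22). The SJCRH30 call was lost without resistant replicate 3 (adjusted p = 0.0534) or without parental replicate 2 (adjusted p = 0.0581). Of the 18 measured genes of the ATR-CHK1-WEE1 checkpoint, TOPBP1 fell in both lines, DBF4 rose in SJCRH30 and fell in Rh41, and RAD17 fell in SJCRH30 and rose in Rh41. DBF4, the activator of the origin-firing kinase CDC7, and RAD17, which loads the checkpoint clamp, had small Rh41 changes (-0.31 ± 0.09 and 0.30 ± 0.09), and their Rh41 calls were lost when any 1 of 7 (DBF4) or 6 (RAD17) of the 8 arrays was left out. ATR, WEE1 and CDC25A were called in neither line, with ATR values that overlapped between groups in both. SLFN11, which blocks stressed replication forks, fell in SJCRH30 (-1.34 ± 0.19), and in Rh41, where it lay between 2.77 and 2.86 in resistant and 2.41 and 2.93 in parental cells, it was not called (adjusted p = 0.31). CDKN1A, which encodes the CDK inhibitor p21, was at 0.19 ± 0.18 in SJCRH30 (adjusted p = 0.53) and rose in Rh41 (1.07 ± 0.11).

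Of the listed PAX3-FOXO1 targets, 7 were called in both lines, 5 of them with opposite directions. The shares over all genes were 6.62% called in both lines and 3.53% in opposite directions. Of 29 measured, 6 rose and 3 fell in SJCRH30 (9.59% and 9.41% over all genes), and 4 rose and 15 fell in Rh41 (11.3% and 9.19%). POU4F1, HMGA2, FOXF1 and MET rose in SJCRH30 and fell in Rh41, NELL1 and ASS1 fell in both, and DCX fell in SJCRH30 and rose in Rh41. POU4F1, a POU-domain transcription factor, had 11.23, 11.02 and 11.43 in resistant SJCRH30 cells, against 10.07, 10.30 and 9.89 in parental ones. Its Rh41 values were 7.59, 7.36, 7.35, 7.25 and 7.33 in resistant cells, against 8.49, 8.71 and 8.77 in parental cells. PAX3, of which the files do not say whether the probes tell the fusion from the normal gene, was at -0.47 ± 0.18 in SJCRH30 (adjusted p = 0.10) and fell by 0.46 ± 0.12 in Rh41 (adjusted p = 0.0172), where the call was lost without parental replicate 1 (adjusted p = 0.0755). FGFR4 was at 0.32 ± 0.19 in SJCRH30 (adjusted p = 0.28) and fell in Rh41 (-0.78 ± 0.10), and MYCN was called in neither line.

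Several metabolic lists had members called in opposite directions, as were 3.53% of all genes. Over all genes, 9.59% rose and 9.41% fell in SJCRH30, and 11.3% rose and 9.19% fell in Rh41. Among amino acid synthesis and unfolded protein response genes, 7 of 23 measured rose and none fell in SJCRH30, and 2 rose and 5 fell in Rh41. PHGDH, PSAT1 and ASNS rose in SJCRH30 and fell in Rh41. PHGDH and PSAT1 catalyse steps of serine synthesis, and PSAT1 had 15.42, 15.51 and 15.50 in resistant SJCRH30 cells, against 14.31, 14.54 and 14.31 in parental ones. Resistant Rh41 cells had PSAT1 values of 8.98, 8.94, 8.95, 8.98 and 8.95, against 9.47, 9.51 and 9.42 in parental cells. The fall of ASNS in Rh41 was small (-0.39 ± 0.12, adjusted p = 0.0465) and its call was lost when any 1 of 6 of the 8 arrays was left out. Of 23 measured genes of cholesterol and fatty acid synthesis, 9 rose and 2 fell in SJCRH30, and 2 rose and 6 fell in Rh41. In this list FASN, SQLE and INSIG1 rose in SJCRH30 and fell in Rh41, and MSMO1 rose in both. The SQLE calls were lost without any 1 of 3 SJCRH30 or 4 Rh41 arrays, and the SJCRH30 call of MSMO1 without any 1 of 5 of the 6 arrays. Of 33 oxidative phosphorylation genes, 2 rose and 9 fell in SJCRH30, and 9 rose and 1 fell in Rh41. NDUFA9, COX7C, COX6A1 and NDUFA2 fell in SJCRH30 and rose in Rh41, and SDHC rose in both. COX7C lost its Rh41 call without any 1 of 5 of the 8 arrays. Of 28 measured drug efflux and detoxification genes, 2 rose and 4 fell in SJCRH30, and 13 rose and 1 fell in Rh41. The aldo-keto reductase genes AKR1C1, AKR1C2 and AKR1C3, which lie side by side on chromosome 10, all fell in SJCRH30 and rose in Rh41. Resistant and parental values of AKR1C1 overlapped in at least 1 line. GCLM, a subunit of the enzyme that starts glutathione synthesis, rose in both lines. AKR1C3 had 6.71, 7.12 and 6.61 in resistant SJCRH30 cells, against 8.88, 8.70 and 8.64 in parental ones, and 7.06, 7.47, 7.35, 7.26 and 7.32 in resistant Rh41 cells, against 5.24, 5.27 and 5.05 in parental ones. These 3 genes are close in sequence and their probes may share signal. AKR1C2 averaged below log2 5 in 3 of the 4 groups, and its calls were lost without SJCRH30 parental replicate 2 or without Rh41 parental replicate 1 or 2.

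Signalling lists held both shared and opposite members. Over all genes, 9.59% rose and 9.41% fell in SJCRH30, 11.3% rose and 9.19% fell in Rh41, and 6.62% were called in both lines. In the Hedgehog pathway HHIP and GLI1, a transcription factor that the pathway induces, fell in both lines, and the receptor gene PTCH1 fell in SJCRH30 (-1.63) and rose in Rh41 (0.88). The growth factor feedback gene DUSP6, a phosphatase of ERK, rose in both lines (1.75 and 0.37), and ETV5, MET and DUSP4 rose in SJCRH30 and fell in Rh41. In the same list FGFR2 fell in both lines (-2.37 and -0.44), and IGFBP5 fell in SJCRH30 and rose in Rh41. ETV5, a transcription factor of the ETS family, changed by 1.24 ± 0.23 in SJCRH30 and -0.86 ± 0.14 in Rh41. CCN1, a matrix protein induced by YAP, changed by -1.21 ± 0.20 and 1.68 ± 0.13, and the p53 target PLK2 by -1.56 ± 0.21 and 1.56 ± 0.11. Of the other p53 targets called in both lines, TIGAR also fell in SJCRH30 and rose in Rh41. PMAIP1 rose in both, and AEN and TNFRSF10B rose in SJCRH30 and fell in Rh41. The SJCRH30 call of PMAIP1 was lost without any 1 of 4 arrays. CASP8, the initiator caspase of death receptors, rose by 1.22 ± 0.26 in SJCRH30 and 1.43 ± 0.17 in Rh41. The other apoptosis regulators called in both lines were PMAIP1 and TNFRSF10B, given above, and XIAP, which fell in SJCRH30 and rose in Rh41. Of 32 measured hypoxia and glycolysis genes, 2 rose and 9 fell in SJCRH30, and 8 rose and 3 fell in Rh41. EGLN3, an oxygen-sensing hydroxylase, rose in both lines (1.45 ± 0.23 and 0.66 ± 0.11). P4HA2 and BNIP3L fell in both and PGK1 fell in SJCRH30 and rose in Rh41. The Rh41 calls of P4HA2 and BNIP3L were each lost without parental replicate 1 or 3. Of 37 measured mesenchymal and matrix genes, 7 rose and 5 fell in SJCRH30, and 7 rose and 8 fell in Rh41. THBS1, a secreted matrix glycoprotein, was the only 1 that rose in both lines (1.75 ± 0.23 and 1.08 ± 0.12). SNAI2 and COL4A2 fell in both, and NID1 and FN1 rose in SJCRH30 and fell in Rh41. The SNAI2 calls were lost without any 1 of 5 SJCRH30 or 6 Rh41 arrays. Of the neuronal list, MAP2, DCX and NCAM1 fell in SJCRH30 and rose in Rh41, UCHL1 did the reverse and NRCAM rose in both. DCX, which binds microtubules in migrating neurons, had the widest change of these in SJCRH30 (-6.29 ± 0.23), against 0.59 ± 0.13 in Rh41.

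**Figure D3:**
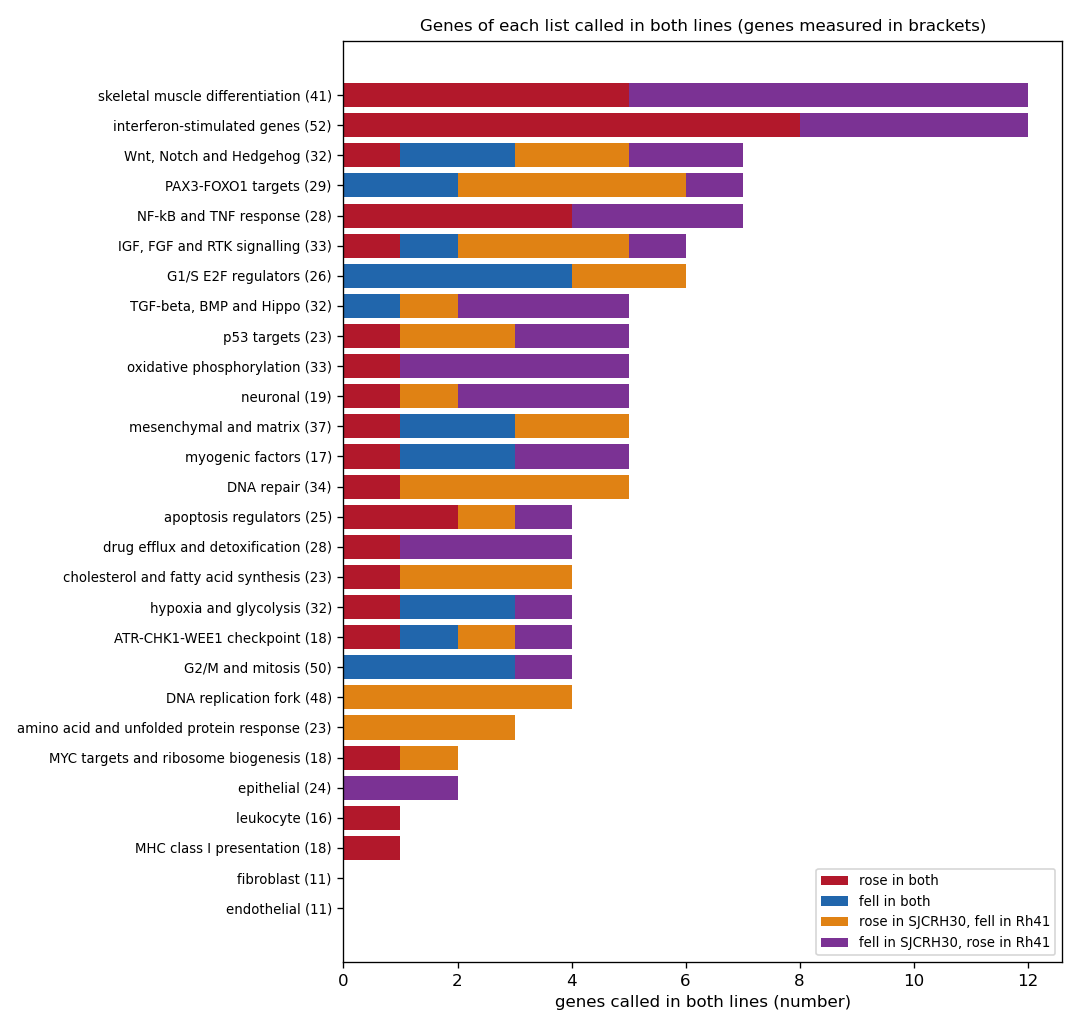
Number of genes in each of 28 gene lists that were called in both lines, by class (colours), with the number of measured genes in brackets. Skeletal muscle differentiation and interferon-stimulated genes have the longest bars with 12 genes each, made of genes that rose in both and genes that fell in SJCRH30 and rose in Rh41, and the 4 replication fork genes all rose in SJCRH30 and fell in Rh41. The bars are numbers, not shares: these 2 lists hold 41 and 52 measured genes, and over all genes 6.62% were called in both lines.

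Genes of a class lay together on the chromosomes. Chromosome 5, with 4.27% of the tested genes, held 68 of the 362 genes (18.8%) that fell in SJCRH30 and rose in Rh41 and 1 of the 264 with the reverse pattern. On it 1.72% of genes rose and 25.1% fell in SJCRH30, and 22.9% rose and 3.7% fell in Rh41. Chromosome 8 had the reverse: 20% of its genes rose and 2.3% fell in SJCRH30, 4.6% rose and 17.7% fell in Rh41, and it held 46 of the 264 genes (17.4%) that rose in SJCRH30 and fell in Rh41 and none of the 362. F2RL2, OCLN, PLK2, KIF20A, MEF2C, COX7C, NDUFA2 and RAD17 are on chromosome 5, and SLC7A2, WRN and SQLE on chromosome 8. The shift of chromosome 5 was seen on every array: its median deviation from the parental mean was -0.29, -0.29 and -0.28 on the resistant SJCRH30 arrays, where the parental ones were near 0, and between 0.11 and 0.14 on the 5 resistant Rh41 arrays.

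**Figure D4:**
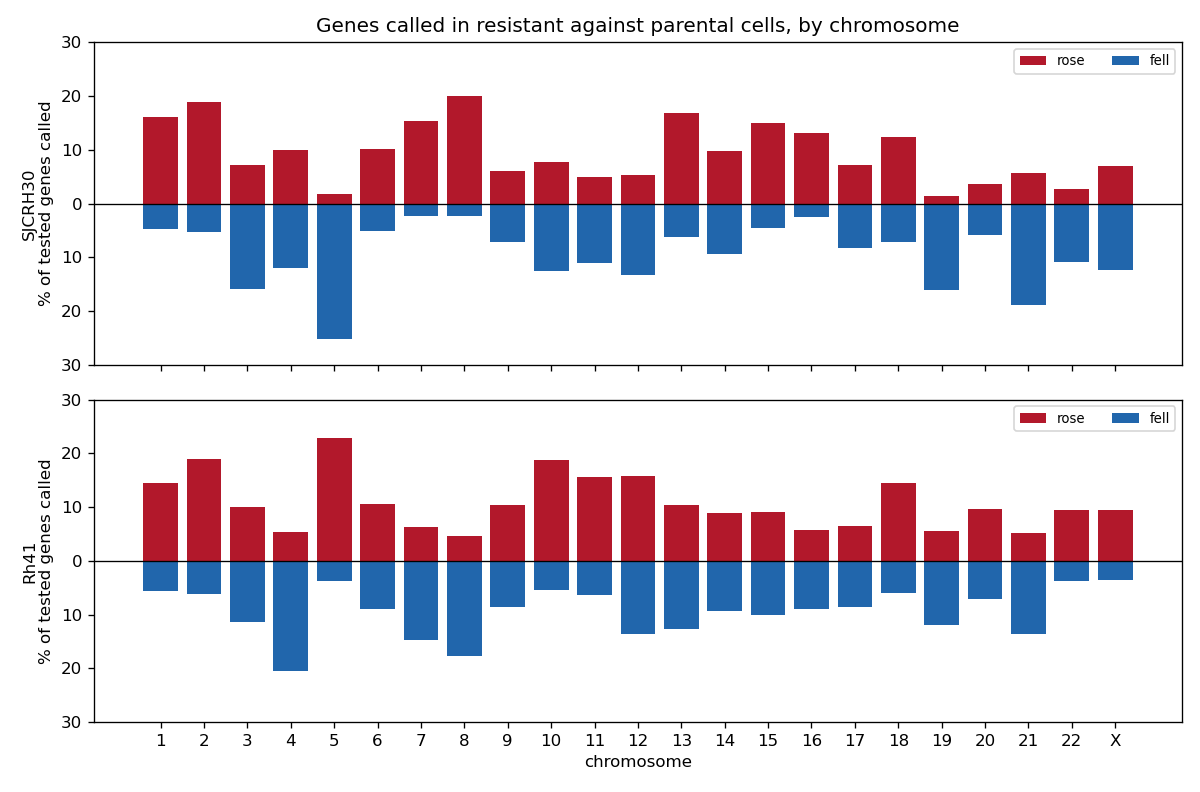
Percent of tested genes that rose (above the line) or fell (below the line) in resistant against parental cells on chromosomes 1 to 22 and X, SJCRH30 in the upper and Rh41 in the lower panel. Chromosome 5 shows mostly falls in SJCRH30 (25.1%) and mostly rises in Rh41 (22.9%), and chromosome 8 the opposite (20% rises and 17.7% falls).

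Chromosomes 1 and 2 held 147 of the 344 genes (42.7%) that rose in both lines, with 16.7% of the tested genes. LAPTM5, S100A16, OLFML3, IFI44, IFI44L and SGIP1, 6 of the 8 leading genes of that class, are on chromosome 1. On chromosome 1 16.2% of genes rose and 4.74% fell in SJCRH30, and 14.4% rose and 5.68% fell in Rh41. Of the 202 genes that fell in both lines, chromosome 4 held 24, among them CCNA2, HHIP and PCDH7, with 3.91% of the tested genes. Chromosomes 12 and 19 held 27 each, with 5.25% and 7.09% of the tested genes, and chromosome 21 held 7, with 1.2%. Over the 23 chromosomes, autosomes and X, the median changes of the lines correlated at -0.16 (Pearson) and -0.11 (Spearman), given as a description. Adjacent tested genes often shared a class: 14.2% of the genes that rose in both, 10.9% of those that fell in both and 17.4% of each opposite class had a neighbour of their own class, against 3.51%, 2.08%, 2.68% and 3.63% of the genes outside it. The longest run was JAM3, NCAPD3, VPS26B, THYN1 and ACAD8 on chromosome 11, all of which rose in both lines, and CCNA2 stood in a run with ANXA5 and EXOSC9 that fell in both. DNA copy number was not measured on these arrays, and its part in these patterns was not tested.

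**Figure D5:**
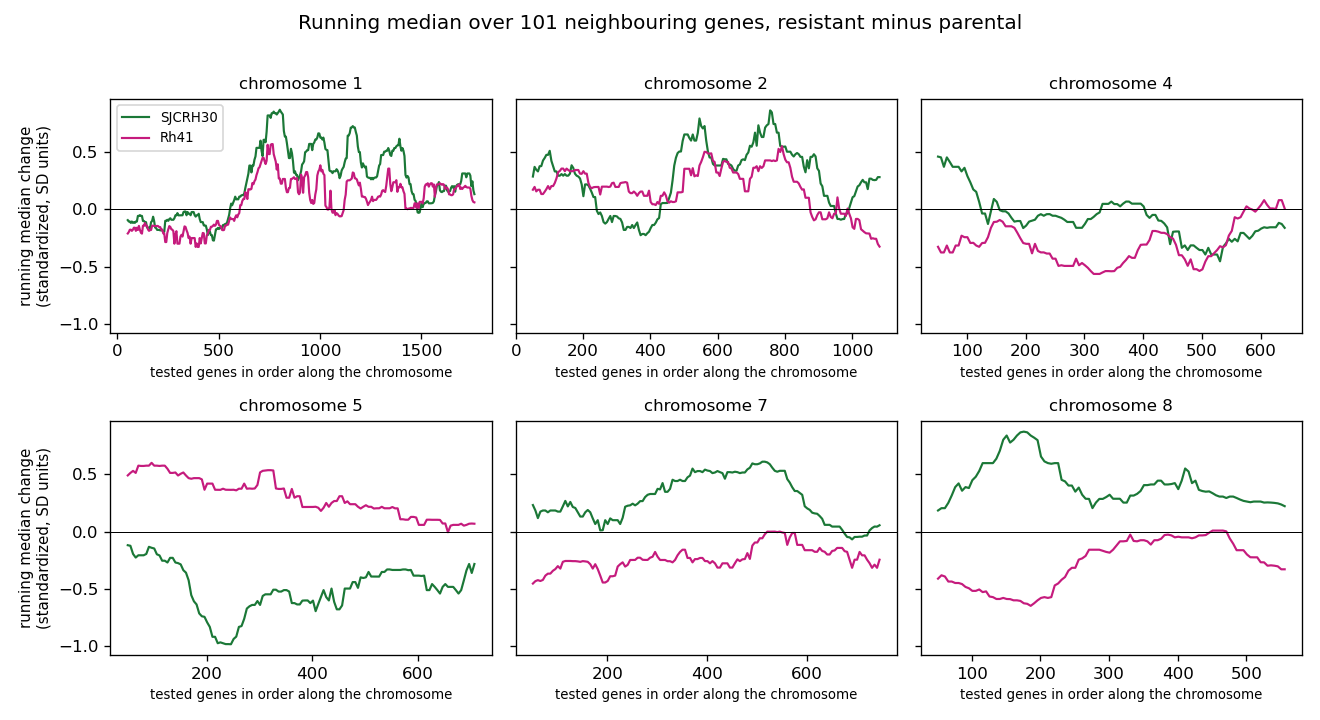
Running median of the standardized change (resistant minus parental, SD units) over 101 neighbouring tested genes along chromosomes 1, 2, 4, 5, 7 and 8, SJCRH30 in green and Rh41 in magenta, drawn only where the window holds all 101 genes, which leaves out the chromosome ends. Over these windows the SJCRH30 curve lies between -0.98 and -0.12 on chromosome 5 while the Rh41 curve lies between -0.01 and 0.60, on chromosome 8 the SJCRH30 curve lies between 0.18 and 0.87 while the Rh41 curve lies between -0.65 and 0.01, and on chromosomes 1 and 2 both curves have stretches above 0.

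Centring each array by the running median of 101 neighbouring genes, an alternative chosen after the data were seen, left 327 genes called in the same and 359 in opposite directions (47.7% the same). Of the 344 genes that rose in both, 182 kept their class after this centring, as did 91 of 202, 110 of 264 and 197 of 362 in the other classes. No gene moved from 1 of the 4 classes to another. LAPTM5, IFI44L, CD9, CHEK1, CCNA2, NID1, SRL, UBE2L6, BST2 and MEF2C kept both calls, and 23 of the 196 called changes of named genes were lost, among them those of COX7C and RAD17 on chromosome 5, SQLE on chromosome 8, and PHGDH, RFC4, GINS3, BLM, MET and HMGA2 on other chromosomes, each in at least 1 line.

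The classes did not carry over to NCI-H520 in 1 direction. Of the 344 genes that rose in both rhabdomyosarcoma lines, 50 rose and 54 fell in NCI-H520, and of the 202 that fell in both, 34 rose and 41 fell, where 10.3% of all genes rose and 9.99% fell. Of the 264 genes that rose in SJCRH30 and fell in Rh41, 54 rose and 64 fell, and of the 362 with the reverse pattern, 50 rose and 71 fell. CHEK1 and S100A16 rose in all 3 lines (1.75 and 1.15 in NCI-H520), and ID3 fell in all 3 (-1.10). CCNA2 and CD9, lower in both rhabdomyosarcoma lines, rose in NCI-H520 (0.81 and 2.61), and IFI44L was not called there (adjusted p = 0.51).

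Leukocyte, endothelial and fibroblast markers were called in at most 1 line each, apart from LAPTM5. This did not hold for the neuronal list, given above, or the epithelial list, where OCLN and KRT19 fell in SJCRH30 and rose in Rh41. Over all genes, 9.59% rose and 9.41% fell in SJCRH30, and 11.3% rose and 9.19% fell in Rh41. Of 16 measured leukocyte genes, 2 rose and 1 fell in SJCRH30 and 2 rose and none fell in Rh41. Of 11 endothelial genes none was called in SJCRH30, and TEK, TIE1 and ENG rose in Rh41 (1.71, 0.83 and 2.35), while the endothelial markers PECAM1, CDH5 and KDR were called in neither line. Of 11 fibroblast genes MMP2 and THY1 rose in SJCRH30 (2.72 and 2.71), and PDGFRB rose and PDGFRA and COL1A1 fell in Rh41 (1.09, -1.55 and -0.39). The median standardized change of the fibroblast list was 0.03 in SJCRH30 and -0.51 in Rh41. The part of other cells in the results was not tested. Whether mouse cells remained in the SJCRH30 lines grown from xenografts was not tested.

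Genes near the threshold show how thin a call can be. DIPK1A, just inside, had 7.47, 8.35 and 8.06 in resistant SJCRH30 cells, against 7.49, 7.17 and 7.01 in parental ones (adjusted p = 0.0498), and DMXL1 had 8.38, 8.12 and 8.95, against 9.14, 8.95 and 9.65 (adjusted p = 0.0499). Both calls were lost when any 1 of 5 of the 6 SJCRH30 arrays was left out. ZBTB38 and SEMA6A, just outside, had SJCRH30 changes of -0.58 ± 0.19 and 0.58 ± 0.19, with Rh41 changes of 0.74 ± 0.10 and -1.33 ± 0.09 that passed.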

How the data were processed

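Total RNA of 20 cultures was hybridized to Clariom S human arrays. The authors summarized the probes by RMA with quantile normalization and deposited log2 values, with the Rh41 arrays on a scale of their own. No source used here gives the RMA version. Nothing was normalized again. Of 21448 clusters, 17709 with 1 gene symbol were tested, and 3739 with several or none were left out. Symbols came from the platform table, all matched by gene number to RefSeq, which also gave chromosomes and gene order. The array number limits the precision.

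A separate fit per line used limma 3.58.1 under R 4.3.3 (lmFit and eBayes, two-sided, Benjamini-Hochberg adjustment, no block), and the difference of the changes in 1 fit of 14 arrays. The class of a gene came from both calls. Lists and members were chosen with earlier results of these data known. Named genes were the 8 per class, and up to 3 per list, with the largest smaller absolute standardized change among genes without overlap in both lines, a panel of 16 genes, and those next to the threshold; other list genes are named where a class of a list is given in full. The scripts were tested on simulated data. Figures were drawn with matplotlib.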

Additional observations from a re-analysis of the deposited data

Results flagged for a closer look

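In 4 of the 108 named genes, 1 of the 5 resistant Rh41 arrays lay apart from the others by Dixon's criterion, which chance meets in about 1 in 20 groups. STING1 was 8.03 on resistant replicate 2, with the others between 8.30 and 8.38, NDUFA9 was 8.14 on replicate 4, with the others between 8.21 and 8.24, COX6A1 was 10.4 on replicate 1, and TNFAIP2 was 6.24 on replicate 4, with the others between 6.01 and 6.07.

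The 58 named genes of the opposite classes were chosen because they were called with opposite signs in the separate fits, so a call for the difference between the changes follows from that choice, and the values are a description. The differences, SJCRH30 minus Rh41 in units of each line's standard deviation of all values, were above 0 for NID1 3.90, LGR5 2.58, DPYD 1.63, ELAPOR2 1.41, PRKG1 1.39, SLC7A2 1.29, LRFN5 1.24, SEMA3D 1.21, POU4F1 1.02, WRN 0.88, UCHL1 0.85, ETV5 0.85, MET 0.82, HMGA2 0.81, WDHD1 0.71, XRCC2 0.70, PHGDH 0.65, PSAT1 0.62, GINS3 0.61, FASN 0.60, TGFB1 0.57, CAD 0.56, ASNS 0.55, BLM 0.54, SQLE 0.54, RFC4 0.46 and DBF4 0.44. They were below 0 for SRL -3.92, MYL4 -3.03, GSG1 -2.48, DCX -2.40, CSF1 -2.10, UBE2L6 -2.08, PLEKHS1 -2.07, F2RL2 -2.06, LRRN1 -1.93, IL32 -1.93, AKR1C3 -1.70, BST2 -1.70, MAP2 -1.48, OCLN -1.36, MEF2C -1.31, PLK2 -1.30, CCN1 -1.25, LGR4 -1.12, ID2 -0.99, KIF20A -0.94, KRT19 -0.85, TIGAR -0.74, TGFBR3 -0.68, COX7C -0.67, NDUFA9 -0.63, IGFBP5 -0.59, COX6A1 -0.58, DMXL1 -0.57, RAD17 -0.55, XIAP -0.52 and AKR1C2 -0.50. Some of the calls behind the choice rest on single arrays beyond those named above: XIAP lost its Rh41 call without any 1 of 6 arrays, TGFB1 its SJCRH30 call without any 1 of 4, IGFBP5 its SJCRH30 call without parental replicate 2 and its Rh41 call without parental replicate 1 or 2, and TGFBR3 its Rh41 call without parental replicate 2.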

How the results depend on the processing

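The counts in this paragraph are given in the order rose in both, fell in both, rose in SJCRH30 and fell in Rh41, and fell in SJCRH30 and rose in Rh41, and were 344, 202, 264 and 362 as reported. They were 183, 83, 100 and 171 with an added 1.5-fold threshold (Rh41 alone 1008 rose and 546 fell) on each line's own scale. They were 56, 25, 38 and 69 among the 1000 largest absolute t in each line, and 147, 67, 109 and 144 with Benjamini-Hochberg adjustment over the larger p of the lines. With the replicate block they were 219, 105, 132 and 205 (Rh41 alone 1234 rose and 857 fell). Same-numbered resistant and parental arrays deviated together at 0.117, -0.01 and 0.02 in SJCRH30 and -0.04, -0.18 and 0.28 in Rh41. Arrays with different numbers lay between -0.09 and 0.07 in SJCRH30 and between -0.29 and 0.21 in Rh41. These few weak correlations do not settle whether the numbers pair the samples. Centring by 101 neighbouring genes, chosen after seeing the data, gave 211, 116, 133 and 226 (SJCRH30 alone 1117 rose); the cause of these changes was not tested. The other alternatives (trended and robust variance, no low signal, 14 arrays quantile-normalized together, all clusters, centring by chromosome) kept every such count within 1.5 times. No direction of a named change reversed.

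Leaving out each array in turn gave 267 to 343, 144 to 181, 190 to 231 and 269 to 355 genes in the 4 classes. In SJCRH30 1240 to 1699 genes rose and 1169 to 1666 fell, and in Rh41 1548 to 2027 rose and 1155 to 1628 fell. The Pearson correlation lay between -0.04 and -0.01, the Spearman correlation between -0.03 and 0.00, the share with the same direction between 48.3% and 50.2%, and the differences called between 1491 and 1767 above 0 and 1883 and 2218 below 0. Of the 196 named changes that were called, 184 to 192 were kept without any 1 array. Low signal limits genes such as BST2 and AKR1C2, whose values lie near the low end of the scale in several groups.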
